A study of Mus musculus with 16 samples.

Results

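The olfactory transduction cascade was described here through 10 genes: the G protein subunit Gnal, the adenylyl cyclase Adcy3, the cyclic nucleotide-gated channel subunits Cnga2, Cnga4 and Cngb1, the chloride channel Ano2, the phosphodiesterases Pde1c and Pde4a, the calcium exchanger Slc24a4 and the receptor kinase Grk3. Each was found on the array by its symbol as 1 probe set, giving 10 of the 19572 probe sets with a gene symbol. RNA came from cells sorted from the olfactory mucosa of S100a5-tauGFP mice, in which a green fluorescent reporter is driven from S100a5, a calcium-binding protein gene whose expression follows the activity of olfactory sensory neurons (OSNs). All groups carried this reporter, and the labels give mice of both sexes aged 7 to 12 weeks, with no strain. The 24 mice stayed singly in chambers under clean air at 3.1 L/min for 40 h, and from 26 h on received 10 s pulses every 20 min of either filtered air (vehicle) or citrus accord at 100%. Cells of 3 mice were pooled per array, and the 16 arrays formed 4 groups with n = 4: vehicle GFP-positive, vehicle GFP-negative, citrus GFP-positive and citrus GFP-negative.

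In the cilia of an OSN, an odorant receptor activates the G protein that holds Gnal, which turns on Adcy3. The cyclic AMP that this cyclase makes opens the channel built from Cnga2, Cnga4 and Cngb1, and calcium entering through it opens Ano2, whose chloride current adds to the depolarisation. The signal ends when phosphodiesterases break cyclic AMP down (Pde1c in the cilia under calcium and calmodulin, Pde4a outside them), when Slc24a4 moves calcium out, and when Grk3 phosphorylates the receptor. The cascade is the common machinery of most OSNs whichever receptor they carry.

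The sequences before the start sites of the 4 members that rose in GFP-positive cells of either stimulus are shown because these members moved in the same direction. RefSeq (GRCm38.p6) windows of 250 bases before the start site, 15 in all, were used for 8 of the 10 members. Grk3 had no window in the source used, and Gnal was left out of this search. The counts below thus describe these 8 members and not the whole cascade. A set of 3 motifs was searched, each of which reads the same on both strands: CCCNNGGG, the core of the site of EBF factors, regulators of OSN genes; TAATTA, a homeodomain core; and TGACGTCA, the full cyclic AMP response element. CCCNNGGG was found in 5 of the 15 windows, in 5 of 8 members, against 11.8% of all 32851 windows and 13.4% of all 27025 genes. The members had more windows per gene than all genes did, so the shares of genes are not like for like. TAATTA was in 0 of these 15 windows and in 4.84% of all windows, and TGACGTCA in 0 and in 1.55%. Some windows of Ano2 overlap, and a match is only a description of the letters. The windows shown lie at chrX:71991599-71991848 (Cnga2, plus strand), chr6:125710938-125711187 (Ano2, plus strand, the third of its 3 windows), chr12:102128477-102128726 (Slc24a4, plus strand) and chr6:56362393-56362642 (Pde1c, minus strand, the first of its 3 windows). They run 5′ to 3′ up to the start site, with each CCCNNGGG match in capitals.
Cnga2: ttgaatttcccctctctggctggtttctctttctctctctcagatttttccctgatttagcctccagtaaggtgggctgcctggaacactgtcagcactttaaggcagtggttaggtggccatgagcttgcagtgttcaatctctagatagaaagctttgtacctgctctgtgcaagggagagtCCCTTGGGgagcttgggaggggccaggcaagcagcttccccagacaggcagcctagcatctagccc
Ano2: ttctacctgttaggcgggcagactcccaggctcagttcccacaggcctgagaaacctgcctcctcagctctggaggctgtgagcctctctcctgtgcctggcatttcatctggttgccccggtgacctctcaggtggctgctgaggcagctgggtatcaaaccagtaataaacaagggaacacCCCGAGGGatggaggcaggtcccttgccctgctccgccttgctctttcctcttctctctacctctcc
Slc24a4: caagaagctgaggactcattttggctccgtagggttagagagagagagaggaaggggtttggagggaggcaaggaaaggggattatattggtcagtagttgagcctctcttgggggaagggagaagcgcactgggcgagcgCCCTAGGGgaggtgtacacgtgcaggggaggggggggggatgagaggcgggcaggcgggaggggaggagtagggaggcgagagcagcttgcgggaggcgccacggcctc
Pde1c: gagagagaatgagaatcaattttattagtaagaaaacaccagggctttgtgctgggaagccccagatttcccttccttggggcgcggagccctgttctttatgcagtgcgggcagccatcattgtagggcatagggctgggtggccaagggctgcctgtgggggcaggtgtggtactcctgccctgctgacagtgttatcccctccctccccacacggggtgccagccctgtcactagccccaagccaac
The match was centred 62 bases before the start in Cnga2, 63 in this window of Ano2 and 105 in Slc24a4. The window of Ano2 shown was the only 1 of its 3 with a match. The other matches were in Cngb1, 125 bases before the start, and in 1 of 3 windows of Pde4a, at 236 and 152 bases. None of the 3 windows of Pde1c, the member with the largest rise, held the letters.

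Arrays give a log2 signal per probe set and no read depth, so the number of arrays limits the precision. The 95th percentile of the negative-control probes, taken here as background, lay between 8.75 and 9.71 on the 16 arrays. Of the 10 cascade genes, 8 lay above it on all 16 arrays, whereas Cngb1 (4.27 to 5.50) and Grk3 (3.59 to 5.52) lay under it on all 16, so their probe sets give no measured level and no fold. S100a5 checked the gates and was higher in GFP-positive cells by 1.91 ± 0.13 (log2, SE) in vehicle and by 1.88 ± 0.13 in citrus (limma adjusted p = 8.38e-09 and 8.64e-09). Cell type markers differed between the gates as well. The mean log2 signal of 13 blood cell markers was 12.21 to 14.03 on GFP-negative and 5.78 to 6.74 on GFP-positive arrays, and all 13 fell in GFP-positive cells of both stimuli. On GFP-positive arrays 12 of these 13 were under background on all citrus arrays and 10 of 13 on all vehicle arrays. The mean of 12 immature OSN markers was 12.46 to 12.90 on GFP-negative and 11.45 to 11.76 on GFP-positive arrays, and 5 of 12 fell in each stimulus, with a median difference of −0.39 in vehicle and −0.36 in citrus. Microvillous cell markers fell in 8 of 8 and globose basal cell markers in 5 of 6 in each stimulus. In vehicle and citrus, Bowman gland markers fell in 3 and 4 of 6 and sustentacular cell markers in 2 and 3 of 8. Markers of guanylyl cyclase D neurons fell in 2 and 3 of 6, and horizontal basal cell markers in 0 of 5. Many of these markers were under background on all 4 GFP-negative arrays of a stimulus too, where a fall is a difference between background signals. In each stimulus they were 5 of 6 globose basal, 5 of 8 microvillous, 4 of 6 Bowman gland and 5 of 5 horizontal basal markers. In vehicle and citrus they were 3 and 4 of 8 sustentacular and 4 and 3 of 6 guanylyl cyclase D neuron markers. The mean of 15 mature OSN markers outside the cascade was 15.64 to 15.96 in vehicle GFP-negative and 15.99 to 16.21 in vehicle GFP-positive arrays, and 2 of 15 rose in vehicle and 4 of 15 in citrus, beside 15.5% and 11.5% of the probe sets above background on at least 4 arrays. Omp, the olfactory marker protein, was at 19.10 ± 0.21 (SD, n = 4) in vehicle GFP-negative and 19.37 ± 0.01 in vehicle GFP-positive arrays and did not pass (adjusted p = 0.19). These samples are bulk RNA of sorted cells, in which fewer cells of a type and less RNA per cell cannot be told apart, and the part of these cell types in the differences that follow was not tested beyond a scaling of the arrays on mature OSN markers.

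**Figure D1:**
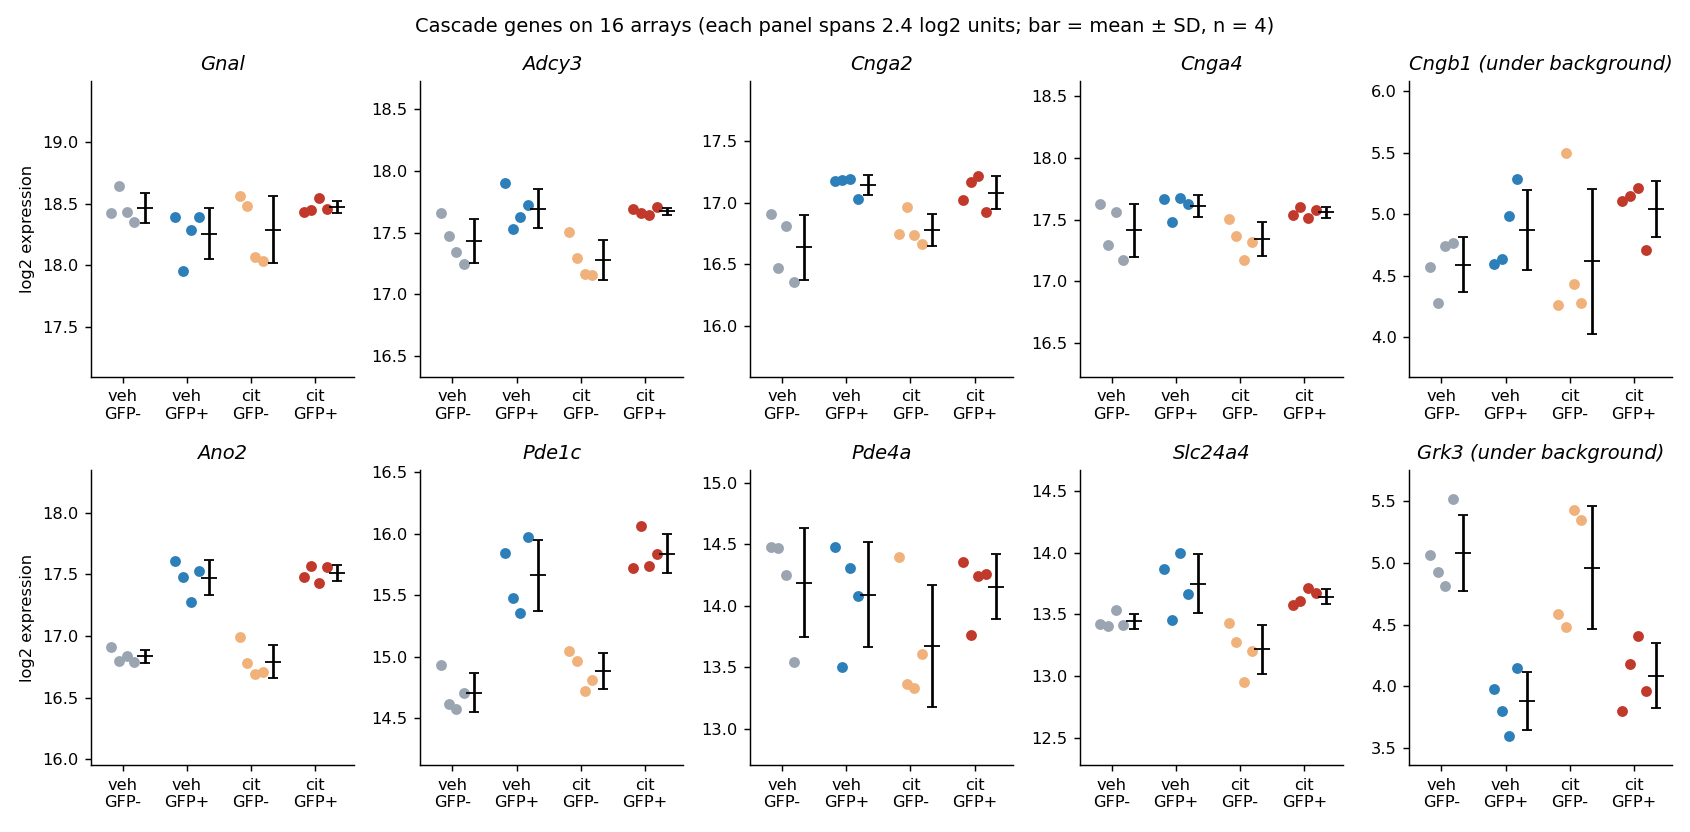
Log2 expression of the 10 cascade genes (y axes, each panel spanning 2.4 log2 units around its own midpoint) on the arrays of the 4 groups (x axes: veh, vehicle; cit, citrus). Points are arrays, each of cells pooled from 3 mice, and bars are mean ± SD (n = 4); Ano2 and Pde1c separate the gates in both stimuli, and Cngb1 and Grk3 lie under background.

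What the reporter separates without odorant was asked in the vehicle arrays. Pde1c, Ano2 and Cnga2 were higher in GFP-positive cells, by 0.95 ± 0.16, 0.64 ± 0.13 and 0.51 ± 0.15 (log2, SE), while Gnal, Adcy3, Cnga4, Pde4a and Slc24a4 did not pass the test. Of the 10 members, 3 rose, beside 9.05% of all 19572 probe sets tested, and 1, Grk3, fell, beside 9.97%. The 3 that rose were among the 8 members above background, beside 15.5% of the 6364 probe sets above background on at least 4 arrays. The median difference was 0.27 over the members and 0.11 over all probe sets tested. Over the 8 members above background it was 0.28, beside 0.16 over the 6364 probe sets above background on at least 4 arrays. Differences were tested with limma over all 16 arrays, and adjusted p is by Benjamini-Hochberg over all 19572 probe sets with a threshold of 0.05. Groups did not overlap for 3 members that were higher (10.9% of all probe sets) and for 1 that was lower (9.96%).

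Pde1c, the calcium- and calmodulin-stimulated phosphodiesterase, had the largest rise. Its log2 expression in pools 1 to 4 was 15.84, 15.48, 15.36 and 15.97 in vehicle GFP-positive and 14.93, 14.62, 14.58 and 14.71 in vehicle GFP-negative arrays. The lowest GFP-positive array thus lay above the highest GFP-negative one. The difference had a 95% interval of 0.62 to 1.29 and adjusted p = 0.00028.

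Ano2, the calcium-activated chloride channel, measured 17.61, 17.48, 17.28 and 17.53 in vehicle GFP-positive arrays 1 to 4 and 16.91, 16.80, 16.84 and 16.79 in their GFP-negative counterparts. The groups did not overlap, and the GFP-negative arrays spanned only 16.79 to 16.91. The difference of 0.64 had an interval of 0.37 to 0.90 and adjusted p = 0.0013.

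Cnga2, the subunit that can form a channel by itself, stood at 17.18, 17.19, 17.19 and 17.03 in vehicle GFP-positive and 16.91, 16.47, 16.81 and 16.36 in vehicle GFP-negative arrays. The groups did not overlap, with GFP-negative arrays 1 and 3 closest to the GFP-positive arrays. The interval was 0.20 to 0.82 and adjusted p = 0.021. The call was lost without vehicle replicate 2 (0.44, adjusted p = 0.12), without vehicle replicate 4 (0.46, 0.083) and in a fit of the vehicle arrays alone (0.51, 0.068).

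The modulatory channel subunits differed from Cnga2 in their calls, though the difference between subunits was not tested. Cnga4, which speeds the channel's calcium-dependent closing, ranged over 17.48 to 17.68 in vehicle GFP-positive and 17.18 to 17.63 in GFP-negative arrays (0.20 ± 0.14, adjusted p = 0.35). It was nevertheless higher in GFP-positive cells in 8 of 8 pools, by 0.03 to 0.45. Cngb1, the third subunit, gave background signals of 4.59 to 5.28 and 4.28 to 4.76 with adjusted p = 0.47.

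The genes at the head of the cascade did not pass in vehicle. Gnal, the olfactory G protein subunit, ranged from 17.95 to 18.39 in GFP-positive and from 18.35 to 18.64 in GFP-negative arrays, a difference of −0.21 ± 0.15 (adjusted p = 0.39), and was higher in GFP-positive cells in 1 of 4 pools. Adcy3, the cyclase, ranged from 17.53 to 17.90 and from 17.25 to 17.66 (0.26 ± 0.14, adjusted p = 0.21). Adcy3 was higher in GFP-positive cells in 4 of 4 vehicle pools, by 0.06 to 0.47.

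Among the genes that end the signal, Slc24a4 ranged over 13.45 to 14.00 in vehicle GFP-positive and 13.41 to 13.53 in GFP-negative arrays (0.30 ± 0.14, adjusted p = 0.16). Pde4a was the most variable of the members above background in vehicle, with SDs of 0.43 and 0.44 and differences from −0.97 to 0.53 between the gates of single pools. Its mean difference was −0.10 ± 0.27 (adjusted p = 0.85). Grk3 gave signals of 3.98, 3.80, 3.59 and 4.15 in GFP-positive and 5.07, 4.93, 4.81 and 5.52 in GFP-negative arrays (adjusted p = 0.0010). Both sets lie under background, so this is a difference between background signals and no fold is given.

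**Figure D2:**
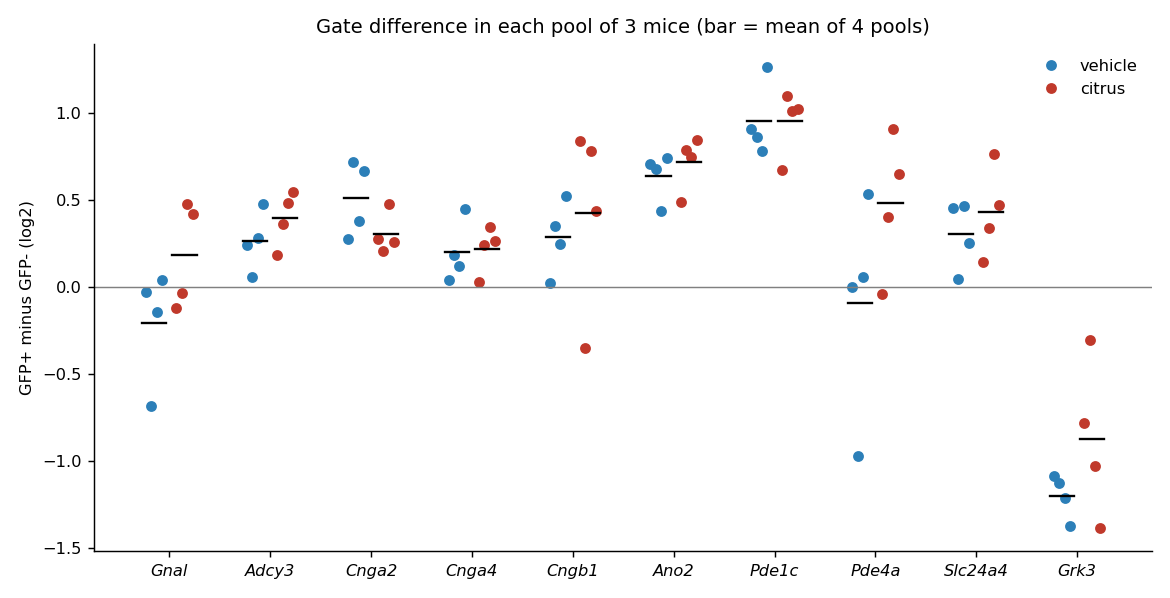
GFP-positive minus GFP-negative log2 expression (y axis) within each pool of 3 mice for the 10 cascade genes (x axis), with vehicle in blue and citrus in red, 4 pools each; bars are the means. Pde1c (0.67 to 1.26) and Ano2 (0.44 to 0.84) lie above 0 in all 8 pools, and Gnal (−0.69 to 0.48) and Pde4a (−0.97 to 0.91) lie on both sides of it.

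The same gate was compared under citrus accord, whose group means come from other arrays and mice but whose errors are from the same fit over all 16 arrays, so the comparisons are not independent repeats. Pde1c and Ano2 were again higher in GFP-positive cells, by 0.95 ± 0.16 and 0.72 ± 0.13, and Slc24a4 by 0.43 ± 0.14, whereas Cnga2 did not pass (0.30 ± 0.15, adjusted p = 0.17). Of the 10 members, 3 rose, beside 7.44% of all probe sets tested, and Grk3 fell, beside 10.8%; the 3 were again among the 8 members above background, beside 11.5% of the probe sets above it. The median difference was 0.41 over the members and 0.13 over all probe sets. Over the 8 members above background it was 0.41, beside 0.16 over the 6364 probe sets above background on at least 4 arrays. Groups did not overlap for 5 members that were higher, namely Adcy3, Cnga4, Ano2, Pde1c and Slc24a4 (11.7% of all probe sets), and for Grk3, which was lower (11.0%).

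Pde1c measured 15.72, 16.06, 15.73 and 15.84 in citrus GFP-positive arrays 1 to 4 and 15.05, 14.96, 14.72 and 14.81 in GFP-negative ones (interval 0.61 to 1.29, adjusted p = 0.00024). Every GFP-positive array was above every GFP-negative one. Ano2 measured 17.48, 17.57, 17.43 and 17.56 against 16.99, 16.78, 16.69 and 16.71 (interval 0.45 to 0.98, adjusted p = 0.00039). For these members the GFP-positive arrays were high as a set, with no array of either gate reaching into the other.

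Slc24a4, the potassium-dependent sodium-calcium exchanger of OSN cilia, measured 13.58, 13.61, 13.71 and 13.67 in citrus GFP-positive and 13.43, 13.27, 12.95 and 13.20 in GFP-negative arrays (interval 0.12 to 0.73, adjusted p = 0.048). It lay just inside the threshold, and the call was lost with the pool as a block (adjusted p = 0.062), over all non-control probe sets (0.051) and in a fit of the citrus arrays alone (0.074). It was also lost without citrus replicate 2 (0.11), 3 (0.26) or 4 (0.17). Adcy3 lay just outside, at 0.39 ± 0.14 (adjusted p = 0.059), with 17.69, 17.66, 17.64 and 17.70 in GFP-positive and 17.51, 17.29, 17.16 and 17.16 in GFP-negative arrays. Adcy3 passed with array weights (0.031), with a trended and robust prior (0.011) and when dim probe sets were left out (0.027).

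Cnga4 (0.22 ± 0.14, adjusted p = 0.29), Gnal (0.18 ± 0.15, 0.45) and Pde4a (0.48 ± 0.27, 0.25) did not pass in citrus. Gnal was tight in GFP-positive cells at 18.44 to 18.54 and spread over 18.04 to 18.56 in GFP-negative cells. Pde4a was at 13.76 to 14.36 and at 13.33 to 14.40. Grk3 was again under background at 3.80 to 4.40 and 4.48 to 5.43 (adjusted p = 0.011, and 0.11 without citrus replicate 4). Cngb1 gave background signals of 4.71 to 5.21 and 4.27 to 5.50 (adjusted p = 0.26).

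**Figure D3:**
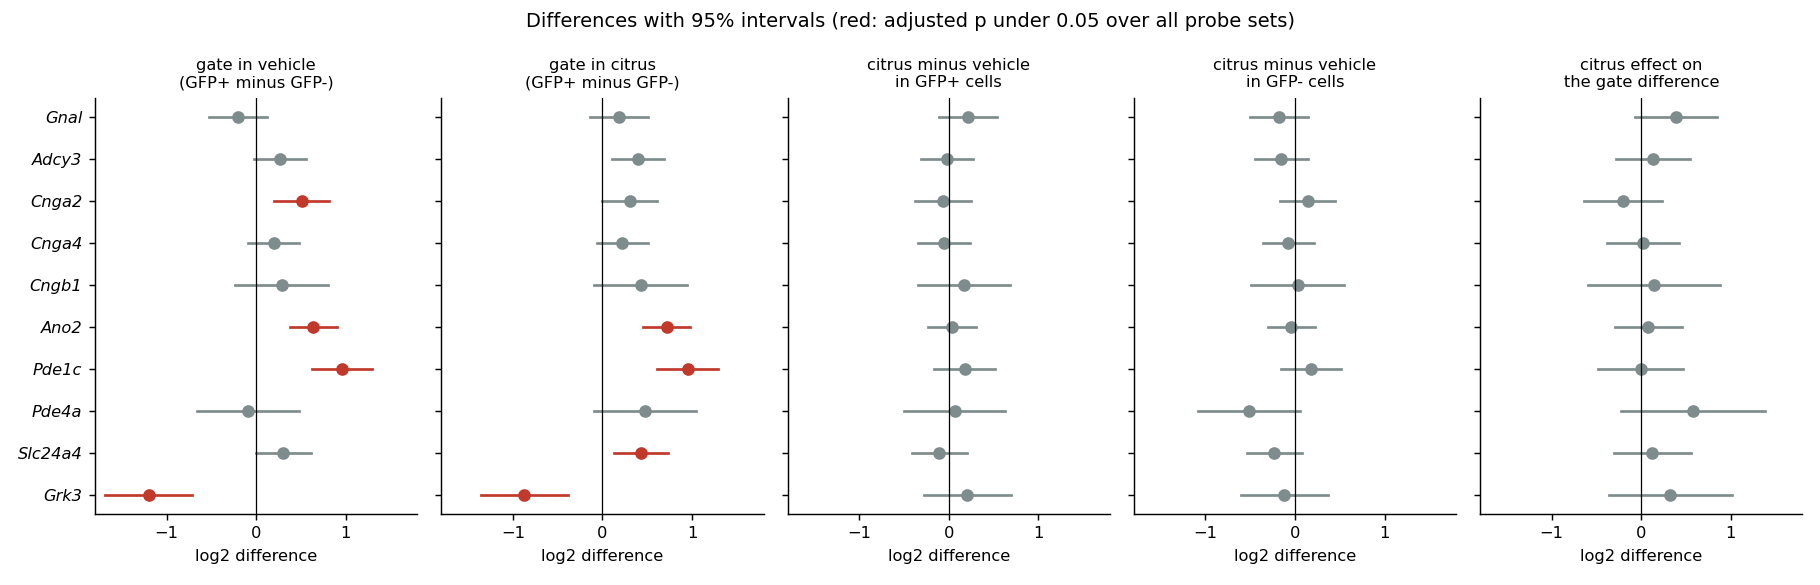
Log2 differences of the 10 cascade genes (x axes) with their 95% intervals from limma, in 1 panel for each of 5 comparisons; red marks adjusted p under 0.05 over all 19572 probe sets. Red appears in the gate comparisons alone, for Cnga2 in vehicle, Slc24a4 in citrus, and Ano2, Pde1c and Grk3 in both, the last under background.

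The size of each gate difference depended on how arrays were scaled to each other. Centring arrays on the mean of the 15 mature OSN markers lowered every gate difference by 0.29 in vehicle and 0.31 in citrus. A shift shared with the mean of those markers drops out on this scale. Whether each of the 15, Cbr2 among them, marks mature OSNs alone was not tested. On this scale Pde1c still passed in both stimuli (0.66, adjusted p = 0.021, and 0.64, 0.025). Ano2 was at 0.35 (0.14) and 0.40 (0.085), Cnga2 at 0.22 (0.43) and −0.01 (0.98), and Slc24a4 at 0.01 (0.97) and 0.12 (0.68), none of which passed. Gnal fell in vehicle on this scale (−0.50, adjusted p = 0.037) but not in citrus (−0.13, 0.68).

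Centring arrays on their median over all tested probe sets instead raised every gate difference by 0.28 in vehicle and 0.33 in citrus. On that scale 6 members rose and 1 fell in vehicle, and 9 rose and 1 fell in citrus. The member that fell was Grk3 in both, and the 9 included Cngb1, both of them under background on all 16 arrays. It also changed the background, from 1771 higher and 1952 lower probe sets to 7080 and 1555 in vehicle, and from 1457 and 2112 to 9128 and 1711 in citrus. Pde1c alone among the members above background passed on each of the 3 scales in both stimuli. With mature OSN markers the background was 504 higher and 3111 lower in vehicle, and 521 and 3226 in citrus.

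**Figure D4:**
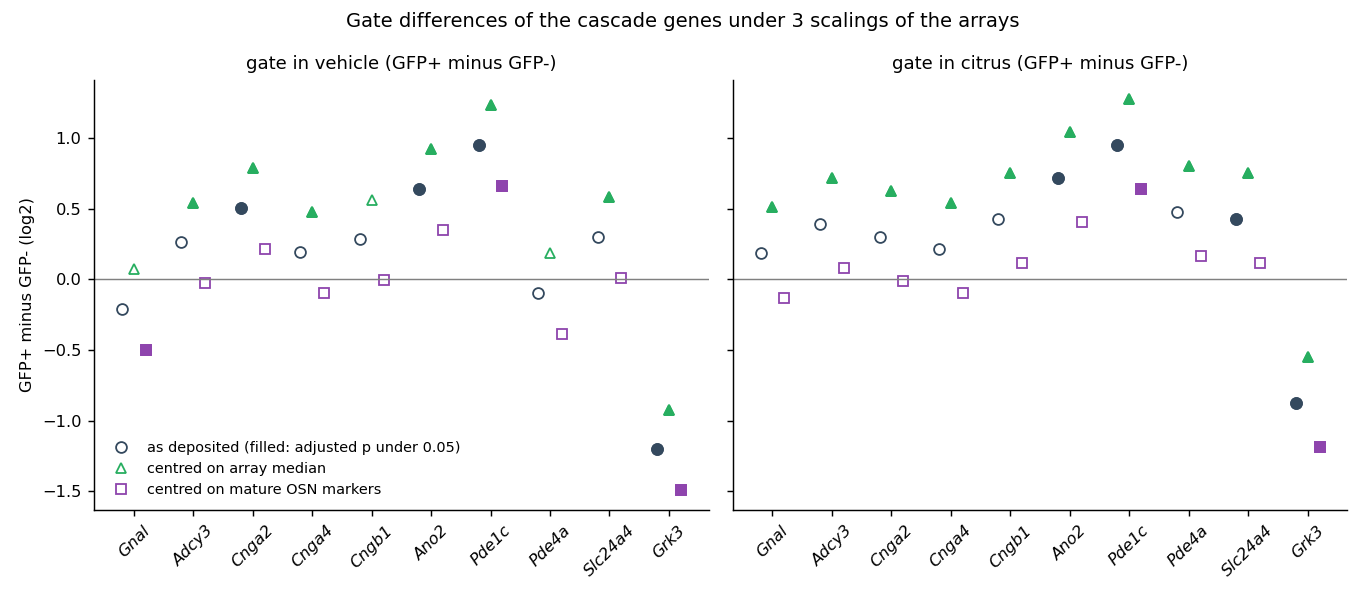
Gate differences (y axis, log2, GFP-positive minus GFP-negative) of the 10 cascade genes (x axes) in vehicle (left) and citrus (right), with arrays as deposited (circles), centred on the array median (triangles) or on 15 mature OSN markers (squares); filled symbols have adjusted p under 0.05. Squares of Cnga2, Cnga4, Adcy3 and Slc24a4 lie between −0.0938 and 0.22, and those of Pde1c are filled at 0.66 and 0.64.

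Whether citrus accord changed the cascade was asked within each gate. In GFP-positive cells 0 of the 10 members passed by limma, and 0 had an unadjusted p under 0.05, beside 0.0204% of all probe sets called (4 of 19572). For the 8 members above background the differences ran from −0.10 (Slc24a4) to 0.22 (Gnal), and their 95% intervals lay between −0.50 and 0.63. The comparison uses the same GFP-positive arrays as the gate comparisons.

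Gnal was the only member whose groups did not overlap between the stimuli in GFP-positive cells. It measured 18.44, 18.45, 18.54 and 18.46 in citrus and 18.39, 17.95, 18.29 and 18.39 in vehicle, so the lowest citrus array exceeded the highest vehicle array by a small margin. The difference was 0.22 ± 0.15 (interval −0.11 to 0.54, unadjusted p = 0.18, adjusted p = 0.999), and 1.47% of all probe sets were higher with no overlap in this comparison. Ano2 (0.04 ± 0.13), Adcy3 (−0.02 ± 0.14), Cnga2 (−0.06 ± 0.15) and Cnga4 (−0.05 ± 0.14) had the smallest differences, and their intervals stayed between −0.37 and 0.30. Pde1c differed by 0.18 ± 0.16 and Pde4a by 0.06 ± 0.27.

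In GFP-negative cells 0 of the 10 members passed by limma or had an unadjusted p under 0.05, beside 0.0153% of all probe sets called (3 of 19572), and all 10 overlapped between the stimuli, where 1.26% of all probe sets were higher and 1.57% lower with no overlap. Pde4a had the smallest p, at −0.51 ± 0.27 (interval −1.08 to 0.06, unadjusted p = 0.076, adjusted p = 0.86). Its arrays measured 14.40, 13.36, 13.33 and 13.61 in citrus and 14.48, 14.47, 14.25 and 13.54 in vehicle, so citrus array 1 and vehicle array 4 each lay with the arrays of the other stimulus. Slc24a4 was at −0.23 ± 0.14 and Gnal at −0.18 ± 0.15. Over the 8 members above background the intervals ran from −1.08 to 0.52.

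The effect of citrus on the gate difference was tested as an interaction, and 0 of the 10 members passed by limma or had an unadjusted p under 0.05, where 0% of all probe sets were called. The gate difference of Pde1c changed by −0.004 ± 0.23 (interval −0.48 to 0.47) and that of Ano2 by 0.08 ± 0.18 (−0.30 to 0.45). Cnga2, called in vehicle alone, changed by −0.21 ± 0.21 (−0.64 to 0.23), and Slc24a4, called in citrus alone, by 0.12 ± 0.20 (−0.31 to 0.56), so neither was shown to differ between the stimuli. Gnal had the smallest p (0.39 ± 0.22, unadjusted p = 0.090), with a difference of −0.21 in vehicle and 0.18 in citrus. Pde4a changed by 0.57 ± 0.38 (−0.23 to 1.38).

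Around the 10 genes, 53 others that act with the cascade were listed (G protein partners, calcium and calmodulin proteins, protein kinase A subunits, transporters, receptor chaperones, other OSN proteins and paralogs), and 47 of them had a probe set with a symbol. Of these, 24 were above background on at least 4 arrays and 21 were under it on all 16. In vehicle 4 of the 47 rose in GFP-positive cells and 7 fell, beside 9.05% and 9.97% of all probe sets. In citrus 5 rose and 8 fell, beside 7.44% and 10.8%. Over all 47 the median difference was 0.10 in vehicle and 0.13 in citrus, beside 0.11 and 0.13 over all probe sets. Of the 24 above background, 4 rose and 2 fell in each stimulus. Of all probe sets above background on at least 4 arrays, 15.5% rose in vehicle and 11.5% in citrus, and the share that fell was not counted. The median over the 24 was 0.20 in vehicle and 0.24 in citrus, beside 0.16 in each over those probe sets.

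The exchanger Slc8a1 and the chaperone Rtp2 rose in both stimuli. Slc8a1, a sodium-calcium exchanger of the plasma membrane, lay at 10.94 to 11.58 in vehicle GFP-positive and 10.25 to 10.52 in vehicle GFP-negative arrays (0.87 ± 0.21, adjusted p = 0.0066). In citrus it lay at 11.11 to 11.73 and 9.70 to 10.70 (1.28 ± 0.21, 0.00019), and it was higher in 8 of 8 pools. The call in vehicle was lost without vehicle replicate 4 (0.77, 0.055). Rtp2, which brings odorant receptors to the membrane, rose by 0.75 ± 0.17 in vehicle (0.0044) and 0.55 ± 0.17 in citrus (0.030). Its call in citrus was lost without any one citrus replicate, at adjusted p = 0.065 to 0.17. Centred on the mature OSN markers, which include Rtp2 and Gng13, Slc8a1 passed in citrus (0.97, 0.0027) but not in vehicle (0.58, 0.074), and none of the other partners above background that rose passed.

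Among the listed G protein partners, Gng13 and Ric8b rose in citrus, while Gnb1 (0.13, adjusted p = 0.51) and Rgs3 (0.37, 0.18) did not pass and Gnas and Rgs2 fell. Gng7 was under background on all 16 arrays and did not pass either (adjusted p = 0.62). Gng13, the gamma subunit found with Gnal in OSNs, rose by 0.61 ± 0.16 (16.17 to 16.34 against 15.44 to 15.83, adjusted p = 0.013), and Ric8b, the guanine nucleotide exchange factor and chaperone of Gnal, by 0.49 ± 0.16 (18.06 to 18.43 against 17.40 to 17.96, 0.037). In vehicle Gng13 and Ric8b were at 0.43 and 0.34 and did not pass, and both were higher in GFP-positive cells in 8 of 8 pools; the interaction gave an unadjusted p of 0.43 and 0.52. The citrus calls were lost for Gng13 without citrus replicate 2 (0.092) or 3 (0.071) and for Ric8b without 2 (0.081), 3 (0.21) or 4 (0.10). Camk1, a calmodulin-dependent kinase (0.53 ± 0.18, 0.045), and Prkacb, a catalytic subunit of protein kinase A (0.45 ± 0.15, 0.047), passed in vehicle, with an unadjusted p of 0.40 and 0.58 for the interaction. Camk1 lost its call without vehicle replicate 2 (0.24), 3 (0.050) or 4 (0.16), and Prkacb without 1 (0.097), 2 (0.20) or 4 (0.22) and with the pool as a block (0.051). Slc8a3 passed in citrus (0.023) with signals of 4.21 to 5.12, under background, and did not pass without citrus replicate 2 (0.095), 3 (0.093) or 4 (0.064) or on the scale of mature OSN markers (0.49).

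Gnas, the widely expressed stimulatory G protein subunit, fell in GFP-positive cells. It measured 11.02 ± 0.46 (SD, n = 4) in vehicle GFP-negative and 11.49 ± 0.60 in citrus GFP-negative arrays, and was not above background on any GFP-positive array, where it averaged 6.81 and 7.02. Set against background in the GFP-positive arrays, its mean array signal was at least 3.20-fold lower in vehicle and at least 5.78-fold lower in citrus (limma adjusted p = 3.33e-08 and 1.3e-08). These folds compare group means without their spread, and the fold of the mRNA may be smaller. Markers of blood, microvillous, globose basal, Bowman gland and sustentacular cells fell on the same arrays, in the counts and with the background limits given above. Their part in this fall and in those that follow was not tested. Pde2a, a phosphodiesterase of the guanylyl cyclase D neurons, was not above background on any GFP-positive array. It was above background on 1 vehicle and 3 citrus GFP-negative arrays (limma adjusted p = 8e-06 and 2.01e-06). Gucy2d and Cnga3, also listed as markers of these neurons, were under background on all 16 arrays. By limma they did not pass in vehicle (adjusted p = 0.97 and 0.65) or in citrus (0.84 and 0.48). Arrb1, Pde4b, Adcy6, Rgs2 and Ano6 also fell in both stimuli and Camk2b in citrus, but Rgs2 exceeded background on 3 and Ano6 on 2 of the 16 arrays and the others on 0. With arrays centred on the median, Adcy6 passed in neither stimulus (0.15 and 0.089) and Ano6 not in citrus (0.092). Leaving out a replicate also ended calls: for Adcy6 without vehicle replicate 2, 3 or 4 (0.092 to 0.18) and citrus replicate 2 or 4 (0.090 and 0.095), for Ano6 without vehicle replicate 4 (0.075) and citrus replicate 2 or 4 (0.072 and 0.061), and for Camk2b without citrus replicate 2 or 3 (0.050 and 0.096).

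By limma, 0 of the 47 partners passed for citrus against vehicle in either gate or for the interaction, and 0 had an unadjusted p under 0.05. The smallest p was that of Prkar2a, a regulatory subunit of protein kinase A, in GFP-positive cells (0.37 ± 0.18, unadjusted p = 0.061) and for the interaction (0.49 ± 0.26, 0.077), and that of Rtp2 in GFP-negative cells (0.35 ± 0.17, 0.054).

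**Figure D5:**
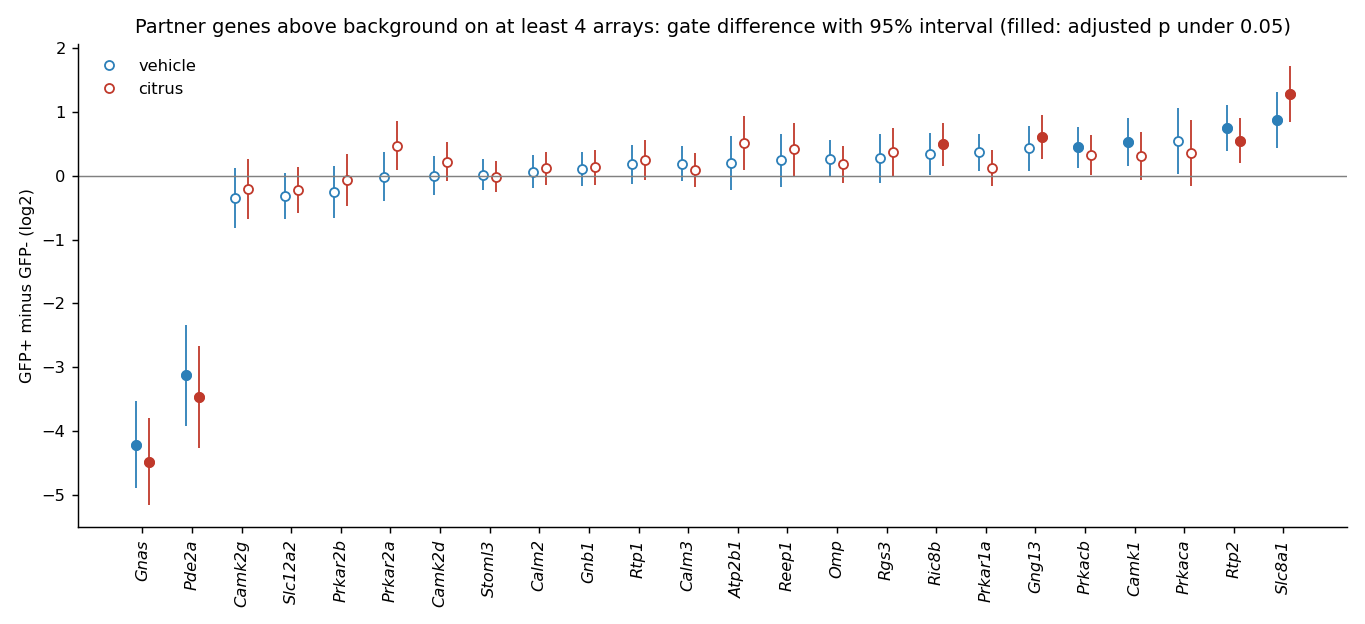
Gate differences (y axis, log2, GFP-positive minus GFP-negative) with 95% intervals for the 24 partner genes above background on at least 4 arrays (x axis), in vehicle (blue) and citrus (red); filled points have adjusted p under 0.05. Slc8a1 is highest in both stimuli, Rtp2 is filled in both, and Gnas and Pde2a, under background in GFP-positive cells, lie lowest.

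For each member the gene with the most similar profile over the 16 arrays was sought among 5859 probe sets above background on at least 4 arrays, leaving out receptors and the members themselves. Sema3e, a secreted guidance cue, was the closest to both Ano2 (Pearson r = 0.96) and Pde1c (r = 0.96). Hmox2, a haem oxygenase, was closest to Cnga2 (r = 0.98), and Megf9 to Gnal (r = 0.91). Pyurf was closest to Adcy3 (r = 0.93), Sgsm3 to Cnga4 (r = 0.92), Kif5a, a kinesin of axonal transport, to Slc24a4 (r = 0.87), and D430042O09Rik to Pde4a (r = 0.93). These are descriptions of the highest of many correlations, over arrays that share the split into gates.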

How the data were processed

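RNA of sorted cells was measured on 16 Clariom S mouse arrays. The deposited table holds log2 expression for 28846 probe sets. The submitters' processing notes name Affymetrix Expression Console and a label names an SST-RMA gene signal. Its version and the build were not given in the sources used here. SST-RMA can stretch intensities, so differences in log2 may exceed those of the mRNA. Values were used as deposited, and 0 columns belonged to other samples. Symbols came from the platform annotation: tests covered the 19572 probe sets with 1 symbol and left out 2634 unnamed here and 6640 controls (5222 negative), and 0 probe sets carried more symbols. A gene with several probe sets was represented by the brightest on average.

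Limma 3.58.1 in R 4.3.3 was fitted with 1 mean per group over all 16 arrays (empirical Bayes, two-sided), and errors beside a log2 difference are its standard errors. The test was tested on simulated data. The main fit had no term for the pool. GFP-positive and GFP-negative arrays of one stimulus and number were taken as the same pool, since 24 mice make 8 pools of 3, and their deviations from the group means correlated at 0.08 to 0.28. Arrays of one group are separate pools, while a gate comparison sets arrays of the same pools against each other, which the main fit leaves out of account.

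All 10 members, S100a5 and Omp were named, and of the partners those past the threshold or, where 0 passed, the one with the smallest p. Gnb1, Gng7, Rgs3, Gucy2d and Cnga3 were named beside them. The members and lists were chosen with earlier results of these data known. Alternatives were the pool or the number as a block, 2 other scalings, array weights, a trended and robust prior, a filter on dim probe sets, all 22206 non-control probe sets, only the groups compared, and leaving out replicates. Plots used matplotlib 3.10.9 under Python 3.11.15.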

Additional observations from a re-analysis of the deposited data

Results flagged for a closer look

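Of 40 sets of 4 arrays (10 members in 4 groups), 3 held an array far from the other 3, where chance sets apart about 1 in 20. Cnga2 was at 17.03 in vehicle GFP-positive replicate 4, where the remaining 3 were at 17.18 to 17.19. Slc24a4 was at 13.53 in vehicle GFP-negative replicate 3, against 13.41 to 13.42. Both groups are tight, so these gaps are small in size. Cngb1 was at 5.50 in citrus GFP-negative replicate 2, against 4.27 to 4.43, all under background; without that pool its gate difference in citrus was 0.69 (adjusted p = 0.042).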

How the results depend on the processing

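Pde1c kept its direction and passed in both gate comparisons under every alternative tried, with differences from 0.64 to 1.28, and Ano2 did so except on the scale of mature OSN markers. The members called for citrus against vehicle and for the interaction were 0 under every alternative. With arrays centred on the median the calls numbered 8635 in vehicle and 10839 in citrus, and 7 and 10 members. Of these members Grk3 in both stimuli and Cngb1 in citrus were under background. On the scale of mature OSN markers 2 members were called in citrus. With dim probe sets left out the calls numbered 2012 and 1564, and 2 for citrus against vehicle in GFP-positive cells. The interaction had 1 call, no member, with the pool as a replicate block and with the trended and robust prior. Without single replicates the calls ranged over 2369 to 3437 in vehicle (2466 without vehicle replicate 2, 2369 without 4), over 2477 to 3142 in citrus, and over 0 to 1 for the interaction (1 without citrus replicate 1), and the members called over 2 to 4 in citrus (2 without citrus replicate 4). The replicate number as a replicate block left 3 citrus calls in either gate; arrays of different stimuli share only a number, and their deviations correlated at −0.01 to 0.35. The pool as a block changed the call of Slc24a4 in citrus and Prkacb in vehicle and of no other gene named.

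Signs turned only for differences that had not passed. Centring on the median turned Gnal (0.0747) and Pde4a (0.19) in vehicle, Cngb1 in GFP-negative cells (−0.0255) and the interaction of Pde1c (0.0405). Centring on mature OSN markers turned Adcy3 (−0.0281), Cnga4 (−0.0938) and Cngb1 (−0.0068) in vehicle, Gnal (−0.13), Cnga2 (−0.0089) and Cnga4 (−0.0936) in citrus, Ano2 (−0.10) and Pde4a (−0.0741) for citrus in GFP-positive cells, and Cngb1 (−0.0898) in GFP-negative cells. Without single replicates the values that turned ranged over −0.0317 to 0.11 (Cnga4) and −0.0611 to 0.0995 (Pde1c) for the interaction, −0.31 to 0.20 (Pde4a) for the gate in vehicle, −0.13 to 0.20 (Pde4a), −0.0756 to 0.0493 (Adcy3) and −0.0311 to 0.0811 (Ano2) for citrus in GFP-positive cells, and −0.28 to 0.0396 (Grk3) and −0.26 to 0.15 (Cngb1) in GFP-negative cells. The causes were not tested. Signal over background limits Cngb1 and Grk3.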
